A study of Mus musculus with 6 samples.

Results

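In Treg cells (regulatory T cells, which restrain immune responses) taken from mouse spleen by their GFP signal, 57 genes were singled out by their low level in cells of BAF60b knockout mice. BAF60b, encoded by Smarcd2, belongs to the chromatin remodelling complex SWI/SNF, also called BAF. The 57 genes are those of 54232 in the count table whose mean over the knockout (KO) libraries was at most 50% of a wild-type (WT) mean of at least 1 CPM (read count scaled to a library total of 1000000), with every KO library below every WT library. Of 12138 genes with a WT mean of at least 1 CPM, 1554 (12.8%) had every KO library below every WT library and 78 (0.643%) met all of these numeric criteria. Of the 78, 21 were set aside by name or chromosome: some gene families, unnamed genes, the X and Y chromosomes, Smarcd2 and 6 single genes. That left 57 of 9840 genes that the criteria and names together could take. The criteria use the comparison of KO with WT itself, so the levels of the 57 genes in the 2 genotypes are given as a description and carry no test.

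The KO group was 3 libraries of Treg cells from mice with a conventional BAF60b knockout, in which the deletion is not limited to Treg cells, and the WT group was 3 libraries of Treg cells from wild-type mice. Cells of both groups carried GFP, and the labels give neither the allele behind it nor the strain, age or sex of the mice. The p-values below cover the spread among libraries only, which may be technical. In such bulk samples, fewer cells of a type and less RNA per cell cannot be told apart.

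SWI/SNF complexes use ATP to slide or evict nucleosomes, which opens promoters and enhancers to transcription factors. The BAF60 proteins link the complex to such factors, and the paralogs Smarcd1, Smarcd2 and Smarcd3 encode alternative forms of this subunit. In blood cells BAF60b is best known for its part in granulocyte development, and the BAF complex as a whole is known to act with Foxp3, the transcription factor that defines Treg cells.

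Library totals were between 19365472 and 22502804 reads in KO libraries and between 18167053 and 21038091 reads in WT libraries. Smarcd2 itself had 57.5, 58.4 and 59.3 CPM in KO libraries, against 205, 198 and 189 CPM in WT libraries, so the labels and the targeted gene went the same way and KO libraries kept 29.6% of the WT level. Foxp3 had 583, 612 and 598 CPM in KO libraries, against 562, 561 and 542 CPM in WT libraries. The summed level of 7 Treg and T cell markers was 4709 to 5122 CPM in KO libraries and 4487 to 4737 CPM in WT libraries, with 1 of the 7, Ikzf2, higher in KO. Reads of 4 Y chromosome genes were at 0 in KO 2 and in WT 1 and summed to between 143 and 450 CPM in the other libraries, so the libraries of each genotype differed in sex-linked reads. Xist, which is read from the inactive X chromosome of female cells, had 87.6, 441 and 0.00 CPM in KO libraries, against 455, 254 and 128 CPM in WT libraries. KO 1, WT 2 and WT 3 thus held Xist and Y chromosome reads together, and whether a library holds cells of more than 1 mouse is not in the labels.

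Most of the 57 genes were weakly expressed. Their WT means lay between 1.01 and 63.2 CPM with a median of 3.15 CPM, against a median of 37.4 CPM over the 9840 genes the criteria could take. Per kilobase of exon the median WT level was 0.869 CPM per kb for the 57 genes and 8.55 CPM per kb for the 9840. A WT mean of 1 to 2 CPM was measured for 21 genes, 2 to 5 CPM for 15, 5 to 20 CPM for 12 and at least 20 CPM for 9. Low genes were taken more often: the 57 hold 2.55% of the eligible genes at 1 to 5 CPM and 0.249% of those at 5 CPM or more. Of the 57, 54 are annotated as protein coding, 2 as long intergenic noncoding RNA and 1 as a polymorphic pseudogene.

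**Figure D1:**
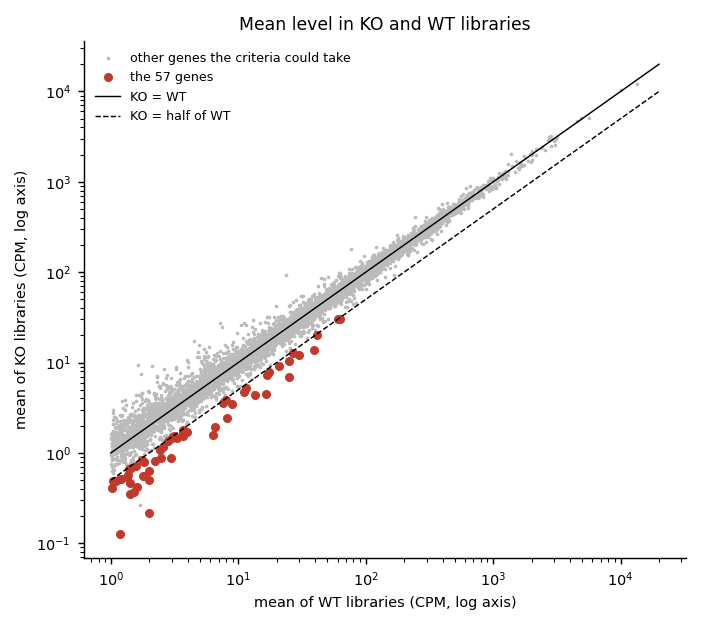
Mean CPM in KO libraries (vertical, log axis) against mean CPM in WT libraries (horizontal, log axis) for the 57 genes (red) and the other genes the criteria could take (grey), n = 3 libraries per genotype. The solid line marks equal levels and the dashed line a KO mean of 50% of WT; the red points run along and below the dashed line between WT means of 1.01 and 63.2 CPM.

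In KO libraries the 57 genes kept between 10.7% and 49.4% of their WT mean, with a median of 43.0%. They lie close to the threshold: 37 kept 40 to 50%, 4 kept 33 to 40%, 11 kept 25 to 33% and 5 kept less than 25%. In log2 terms the median ratio was -1.22, beside 0.00 over the eligible genes. A mean at or under 50% does not require this of each KO library: all 3 KO libraries were at or under 50% of the WT mean in 25 genes, and in 32 at least 1 KO library was above it. KO 1 was above 50% of the WT mean in 18 genes, KO 2 in 10 and KO 3 in 12. In 18 genes the lowest WT library was at least 2 times the highest KO library. No gene was silent in KO: 0 of the 57 were at 0 reads in any KO library, and 3 had 3 or fewer reads in at least 1.

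**Figure D2:**
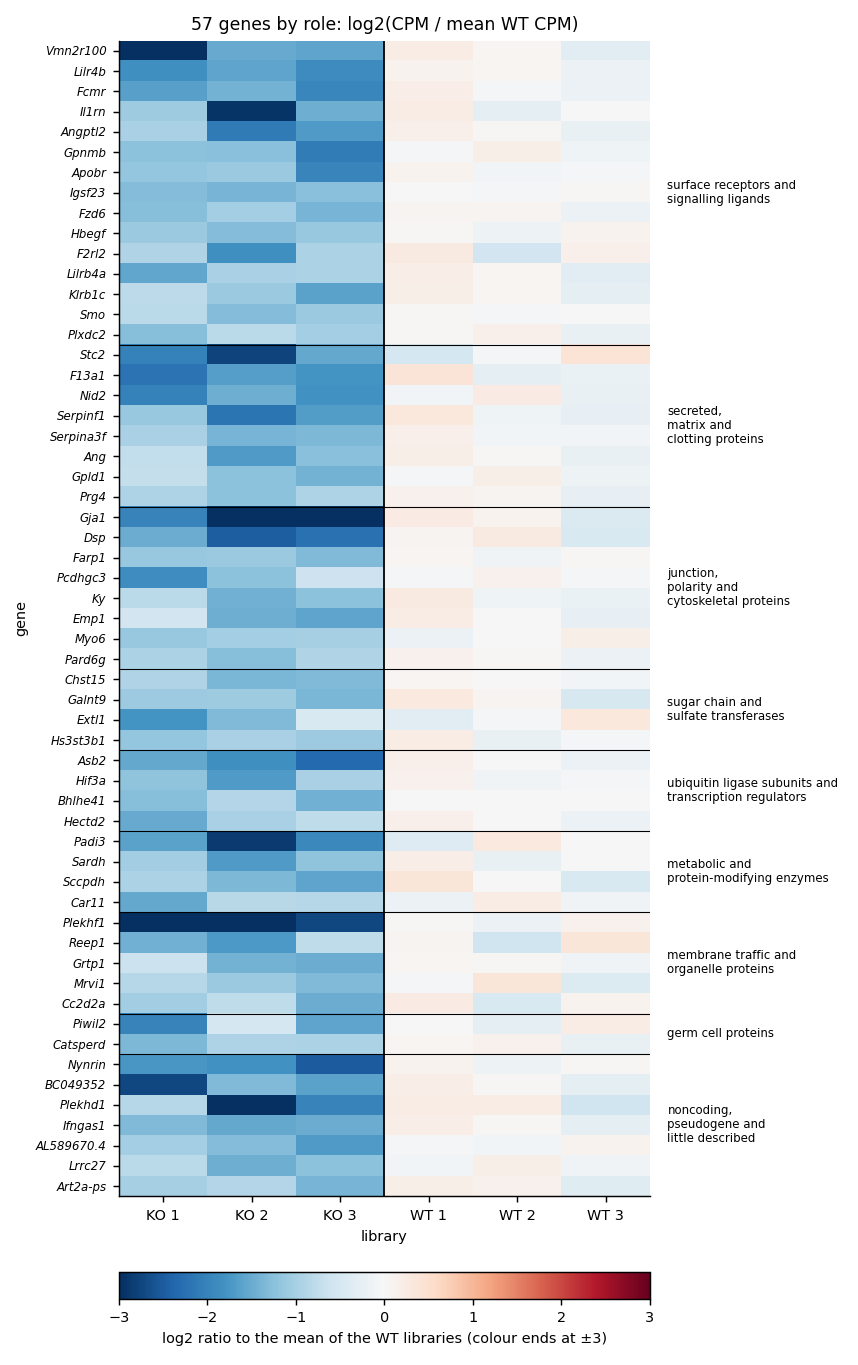
Log2 ratio of each library's CPM to the mean of the WT libraries for the 57 genes (rows, grouped by role), with KO 1 to 3 left of WT 1 to 3. Every KO cell is blue, since the criteria require it, and the depth of the blue differs among KO libraries within a gene, as in Plekhd1, Gja1 and Extl1.

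The junction, polarity and cytoskeletal genes hold 2 of the 5 genes at less than 25% of their WT mean, and the most abundant of the 57. Values of the 3 libraries of a genotype are given in the order 1, 2, 3. Gja1 (ENSMUSG00000050953, chr10:56377330-56402513, plus strand), which encodes the gap junction protein connexin 43, had 0.497, 0.103 and 0.0444 CPM in KO libraries, against 2.37, 2.14 and 1.49 CPM in WT libraries. KO libraries thus kept 10.7% of the WT mean, with KO 1 several times above KO 2 and KO 3, and the edgeR log2 fold change was -3.21 with a standard error (SE) of 0.56. Dsp (ENSMUSG00000054889, chr13:38151294-38198577, plus strand), the desmoplakin gene, whose product ties desmosomes to intermediate filaments, had 2.24, 1.14 and 1.33 CPM in KO libraries, against 6.66, 7.65 and 4.62 CPM in WT libraries. That is 24.8% of the WT mean, and the lowest WT library stayed above 2 times the highest KO library. Myo6 (ENSMUSG00000033577, chr9:80165031-80311729, plus strand), a myosin that walks towards the minus end of actin filaments and serves endocytosis, was the most abundant of the 57 per read total, with 28.6, 31.0 and 31.7 CPM in KO libraries, against 55.9, 62.4 and 71.5 CPM in WT libraries. Pard6g (ENSMUSG00000056214, chr18:80046895-80119640, plus strand), a scaffold of the PAR polarity complex, had 21.4, 17.1 and 22.4 CPM in KO libraries, against 45.4, 42.4 and 37.2 CPM in WT libraries. In both genes the libraries of a genotype lay close together, and the groups were separated by a gap wider than the spread within either.

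Farp1, a FERM domain protein, had 7.55, 7.64 and 6.67 CPM in KO libraries, against 17.4, 15.5 and 17.0 CPM in WT libraries. Emp1, a 4-span membrane protein of epithelial cells, had 11.7, 6.25 and 5.78 CPM in KO libraries, against 20.3, 17.2 and 14.6 CPM in WT libraries. Emp1 is one of the genes in which KO 1 stood apart, at more than 50% of the WT mean, and the gap to the lowest WT library was narrow. Ky, known for its part in muscle maintenance, had 6.61, 4.23 and 4.93 CPM in KO libraries, against 13.9, 10.6 and 10.1 CPM in WT libraries. Pcdhgc3, a protocadherin of the gamma cluster, was near the WT limit of 1 CPM with 0.491 ± 0.208 CPM in KO libraries and 1.09 ± 0.0830 CPM in WT libraries (SD, n = 3 each), and it shares most of its 3′ exons with the other genes of its cluster, so its counts are uncertain.

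Desmosomes are built from desmoglein, desmocollin, plakophilin and plakoglobin chains beside desmoplakin. Of 15 desmosome genes listed, 8 were tested, 6 had no read and 0 were called higher in KO. Called lower were 2, Dsp itself and Pkp4. Of all tested genes, 3.2% were called lower and 3.25% higher. Members in this and the later lists of relatives were chosen by the same contrast, so nothing is read from their calls. Pkp4, a plakophilin, had 26.9, 27.6 and 27.6 CPM in KO libraries, against 34.2, 36.6 and 33.3 CPM in WT libraries (log2 fold change -0.35, SE 0.07, edgeR adjusted p = 0.0113), and its adjusted p without WT 2 was 0.0637. Pkp3, the most abundant of the list, had 190, 172 and 196 CPM in KO libraries, against 182, 156 and 167 CPM in WT libraries with an edgeR adjusted p of 0.328. The desmosomal cadherins Dsc1, Dsc2, Dsc3, Dsg1a and Dsg3 had 0 reads in all 6 libraries, and Dsg2 was at 0.894, 1.03 and 0.578 CPM in KO libraries and 0.330, 0.570 and 0.447 CPM in WT libraries. Dsp reads thus came from libraries in which most of these cadherins were at 0.

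**Figure D3:**
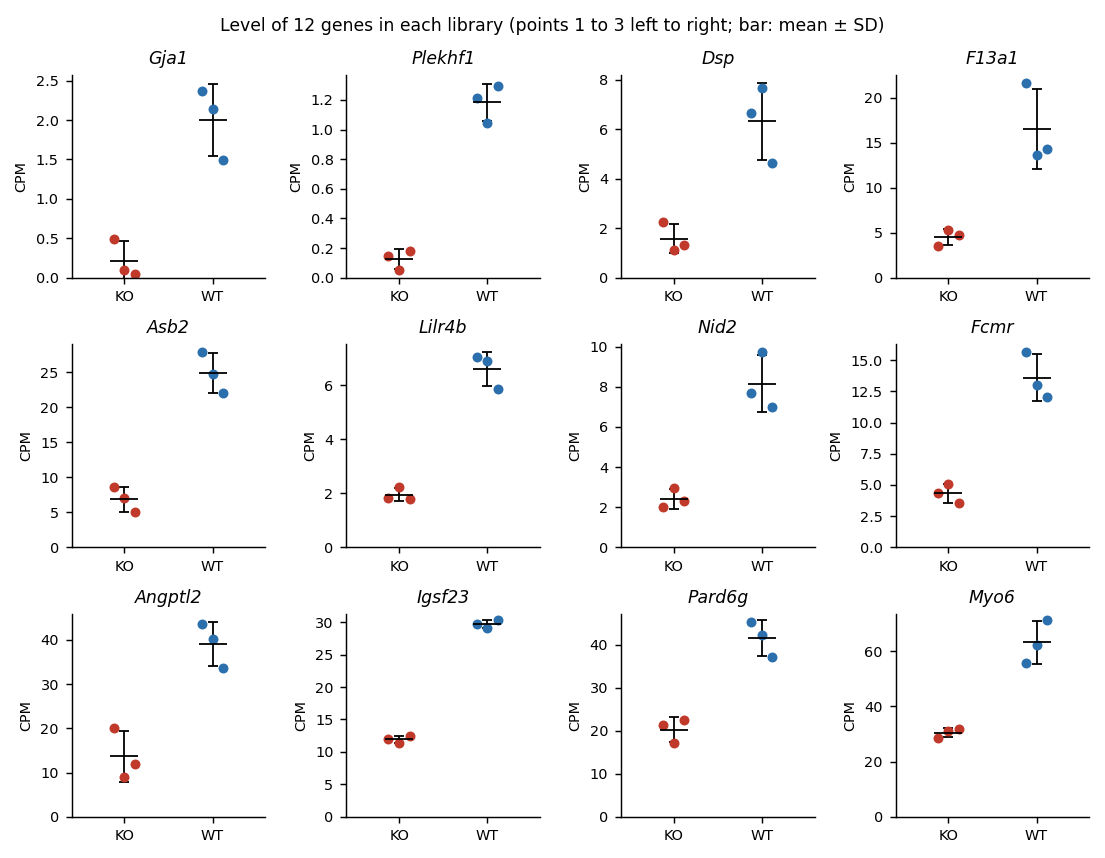
CPM of 12 of the 57 genes in each library (vertical axes start at 0), KO left of WT, with points for libraries 1 to 3 from left to right and bars for the mean and SD (n = 3 each). In none of the 12 do the genotypes overlap; KO 1 lies above the other KO libraries in Gja1, Dsp, Asb2 and Angptl2, while the points of Igsf23 lie close together in both genotypes.

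Surface receptors and signalling ligands form the largest role group, with 15 genes at 25.9 to 49.3% of the WT mean. Among receptors of the immune system, Fcmr (ENSMUSG00000042474, chr1:130865669-130880791, plus strand), the Fc receptor for IgM, had 4.37, 5.06 and 3.51 CPM in KO libraries, against 15.7, 13 and 12.1 CPM in WT libraries. It kept 31.8% of the WT level, and every WT library was more than 2 times the highest KO library. Lilr4b (ENSMUSG00000112023, chr10:51480632-51486703, plus strand) and Lilrb4a (ENSMUSG00000112148, chr10:51490956-51496611, plus strand) are neighbouring immunoglobulin-like receptor genes, 4.25 kb apart. Lilr4b had 1.84, 2.22 and 1.78 CPM in KO libraries, against 7.05, 6.89 and 5.86 CPM in WT libraries. Lilrb4a had 1.24, 1.86 and 1.91 CPM in KO libraries, against 4.24, 3.85 and 2.93 CPM in WT libraries. KO libraries kept 29.5% of the WT mean of Lilr4b and 45.5% of that of Lilrb4a. However, 24.1% of the 50-base words of Lilr4b transcripts also occur in Lilrb4a, and 46.7% of those of Lilrb4a occur in transcripts of other genes. Reads may thus have been assigned to the wrong gene of the pair or dropped, and the difference between the 2 genes was not tested. Klrb1c, which encodes the NK1.1 antigen of natural killer cells, had 1.49, 1.19 and 0.844 CPM in KO libraries, against 2.92, 2.66 and 2.14 CPM in WT libraries. Its counts are uncertain too, since 17.0% of its 50-base words also occur in transcripts of other genes.

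Relatives of these receptors were counted from lists. Of 5 tested Fc and related receptors, 1 was called lower, which is Fcmr, and 0 were called higher. Of 3 tested leukocyte immunoglobulin-like receptors, 2 were called lower, both members of the 57. Of all tested genes, 3.2% were called lower and 3.25% higher. The calls of the members follow from their choice, and nothing is read from these counts. The third of these receptors, Pirb, was at 2.34, 4.96 and 0.489 CPM in KO libraries and 1.16, 1.19 and 1.29 CPM in WT libraries. It was not called (edgeR adjusted p = 0.373). Pirb and the Fc gamma receptor genes Fcgr1, Fcgr3 and Fcgr4 were highest in KO 2, the library with the most reads of macrophage markers.

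Igsf23 (ENSMUSG00000040498, chr7:19937305-19950756, minus strand), an immunoglobulin superfamily protein whose role is little described, had 12, 11.4 and 12.5 CPM in KO libraries, against 29.8, 29.1 and 30.4 CPM in WT libraries. It varied least of the genes above 20 CPM, with means of 12 ± 0.566 CPM in KO libraries and 29.7 ± 0.635 CPM in WT libraries (SD, n = 3 each), a log2 fold change of -1.32 and an SE of 0.08. Apobr, a receptor for apolipoprotein B48 on macrophages, had 3.97, 4.13 and 2.27 CPM in KO libraries, against 9.58, 8.41 and 8.65 CPM in WT libraries. Gpnmb, a glycoprotein of melanocytes and macrophages, had 1.04, 1.03 and 0.578 CPM in KO libraries, against 2.37, 2.76 and 2.24 CPM in WT libraries. Its KO values all lay under 50% of the lowest WT value.

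Receptors of developmental pathways were among the low members. Fzd6, a Frizzled receptor for Wnt ligands, had 1.64, 1.96 and 1.51 CPM in KO libraries, against 4.18, 4.18 and 3.53 CPM in WT libraries. Smo, the membrane protein that passes on the hedgehog signal, had 1.59, 1.14 and 1.29 CPM in KO libraries, against 2.86, 2.71 and 2.78 CPM in WT libraries. Ptch1 and Gli1, a receptor and a transcription factor of the same pathway chosen after their values were seen, were not called: Ptch1 averaged 116 ± 7.39 CPM in KO libraries and 113 ± 1.81 CPM in WT libraries (edgeR adjusted p = 0.851), and Gli1 averaged 1.66 ± 0.229 CPM in KO libraries and 1.71 ± 0.644 CPM in WT libraries (edgeR adjusted p = 0.934; SD, n = 3 each). F2rl2, the protease-activated receptor 3 that thrombin cleaves, had 1.29, 0.671 and 1.24 CPM in KO libraries, against 2.92, 1.62 and 2.68 CPM in WT libraries. WT 2 lay well below WT 1 and WT 3 for F2rl2, and the gap to the highest KO library was small. Vmn2r100, named as a vomeronasal receptor, kept 25.9%, with 0.149, 0.568 and 0.533 CPM in KO libraries, against 1.87, 1.66 and 1.29 CPM in WT libraries.

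Ligands and secreted signals of the group had these values. Angptl2 (ENSMUSG00000004105, chr2:33216069-33247717, plus strand), a secreted angiopoietin-like factor, had 20.02, 8.99 and 12 CPM in KO libraries, against 43.6, 40.1 and 33.7 CPM in WT libraries. KO 1 was more than 2 times KO 2, and no KO library overlapped a WT library. Of 3 tested angiopoietin-like genes 1 was called lower, Angptl2 itself, against 3.2% of all tested genes. Angptl4 and Angptl6, at 1.19 to 2.53 CPM on average in either genotype, were not called. Hbegf, the heparin-binding ligand of the EGF receptor, had 1.54, 1.343 and 1.51 CPM in KO libraries, against 3.41, 2.99 and 3.58 CPM in WT libraries. Il1rn, the antagonist of the interleukin 1 receptor, had 0.944, 0.258 and 0.711 CPM in KO libraries, against 2.31, 1.62 and 1.99 CPM in WT libraries. Plxdc2, described as a receptor for the secreted factor PEDF, had 1.29, 1.81 and 1.56 CPM in KO libraries, against 3.25, 3.52 and 2.68 CPM in WT libraries, and Serpinf1, the gene of PEDF, had 0.646, 0.310 and 0.444 CPM in KO libraries, against 1.76, 1.28 and 1.19 CPM in WT libraries. Plxdc2 lies at the edge of the set, at 49.3% of its WT mean, while Serpinf1 kept 33.0%.

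Of the 8 secreted, matrix and clotting genes, F13a1 (ENSMUSG00000039109, chr13:36867178-37050244, minus strand), the catalytic chain of coagulation factor XIII, a transglutaminase that crosslinks fibrin, had 3.58, 5.27 and 4.75 CPM in KO libraries, against 21.7, 13.7 and 14.4 CPM in WT libraries. WT 1 stood above WT 2 and WT 3, and even the lowest WT library was more than 2 times the highest KO library. Among its relatives, of 3 tested transglutaminase genes 1 was called lower, F13a1 itself, against 3.2% of all tested genes. Tgm2 averaged 13.8 ± 3.91 CPM in KO libraries and 16 ± 2.08 CPM in WT libraries (SD, n = 3 each, edgeR adjusted p = 0.553). Nid2 (ENSMUSG00000021806, chr14:19751265-19811787, plus strand), the basement membrane linker nidogen 2, had 1.99, 2.94 and 2.31 CPM in KO libraries, against 7.71, 9.74 and 7.01 CPM in WT libraries. Of its listed partners, 2 were tested, Hspg2 and Lamc1, and Lamc1, the laminin gamma 1 chain that nidogens bind, was called higher with 236, 253 and 227 CPM in KO libraries, against 188, 180 and 168 CPM in WT libraries (log2 fold change 0.40, SE 0.05, edgeR adjusted p = 0.00299). Nid1, the paralog of Nid2, was at 0 reads in 4 of the 6 libraries.

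Prg4 (ENSMUSG00000006014, chr1:150449412-150466165, minus strand), the gene of the joint lubricant lubricin, was the second most abundant of the 57, with 32.1, 25.8 and 32.0 CPM in KO libraries, against 66.4, 64.3 and 51.7 CPM in WT libraries. It is also the gene nearest to the threshold from inside, at 49.4%. Serpina3f, a serine protease inhibitor of a cluster on chromosome 12, had 5.61, 4.18 and 4.31 CPM in KO libraries, against 12.2, 10.4 and 10.4 CPM in WT libraries. Its neighbour in the cluster, Serpina3g, 15.1 kb away, was more abundant and also lower in KO, with 96.6, 90.2 and 95.2 CPM in KO libraries, against 179, 165 and 152 CPM in WT libraries (log2 fold change -0.82, SE 0.06, edgeR adjusted p = 0.000219). These 2 transcripts share 6.03% of the 50-base words of Serpina3f. Gpld1, a phospholipase that releases proteins from their glycolipid anchor, had 4.57, 3.2 and 2.80 CPM in KO libraries, against 7.38, 8.46 and 6.76 CPM in WT libraries, and 45.5% of its exon length lies under exons of Mrs2 on the opposite strand. Stc2, the secreted glycoprotein stanniocalcin 2, kept 24.5%, with 0.348, 0.207 and 0.489 CPM in KO libraries, against 0.991, 1.38 and 1.89 CPM in WT libraries. Ang, the ribonuclease angiogenin, had 0.696, 0.361 and 0.489 CPM in KO libraries, against 1.32, 1.19 and 0.994 CPM in WT libraries, and it shares first exons with Rnase4, which averaged 7.37 ± 2.07 CPM in KO libraries and 11.7 ± 1.78 CPM in WT libraries (SD, n = 3 each; edgeR adjusted p = 0.0778).

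The 4 genes that act on sugar chains lay near one another, at 44.1 to 47.8% of their WT means. Chst15 (ENSMUSG00000030930, chr7:132235780-132317228, minus strand), which adds a second sulfate to chondroitin sulfate, had 11.2, 8.0 and 8.22 CPM in KO libraries, against 21.7, 20.8 and 19.6 CPM in WT libraries. Hs3st3b1, a 3-O-sulfotransferase of heparan sulfate, had 3.58, 4.08 and 3.78 CPM in KO libraries, against 9.25, 6.84 and 7.85 CPM in WT libraries. Galnt9, which starts O-linked sugar chains, had 1.79, 1.81 and 1.47 CPM in KO libraries, against 4.62, 4.04 and 2.73 CPM in WT libraries. Extl1, an exostosin-like enzyme, was low throughout, with 0.298, 0.413 and 0.755 CPM in KO libraries, against 0.826, 0.998 and 1.29 CPM in WT libraries, and KO 3 came close to WT 1.

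Among ubiquitin ligase subunits and transcription regulators, Asb2 (ENSMUSG00000021200, chr12:103321142-103356001, minus strand), the substrate receptor of a cullin ligase known to target filamins in blood cells, stood out with 8.60, 6.97 and 4.98 CPM in KO libraries, against 27.9, 24.8 and 22.1 CPM in WT libraries. KO libraries kept 27.5%, and the log2 fold change was -1.88 with an SE of 0.17. Of 18 Asb genes listed, 7 were tested, 7 had no read, 1 was called lower, which is Asb2, and 0 were called higher. Of all tested genes, 3.2% were called lower and 3.25% higher. The 6 other tested Asb genes averaged between 23.3 and 44.6 CPM in KO libraries and between 24.7 and 48.4 CPM in WT libraries. Hectd2, a HECT domain ubiquitin ligase, had 1.29, 1.86 and 2.18 CPM in KO libraries, against 4.07, 3.71 and 3.23 CPM in WT libraries. Hif3a, a member of the hypoxia-inducible factor family, had 1.59, 1.14 and 1.87 CPM in KO libraries, against 4.02, 3.42 and 3.63 CPM in WT libraries. Bhlhe41, a helix-loop-helix repressor that acts in lymphocytes and in the circadian clock, had 0.745, 0.981 and 0.667 CPM in KO libraries, against 1.82, 1.81 and 1.79 CPM in WT libraries. The WT libraries were nearly equal for Bhlhe41. Its paralog Bhlhe40, chosen after its values were seen, averaged 49.8 ± 7.45 CPM in KO libraries and 60.9 ± 4.29 CPM in WT libraries (SD, n = 3 each) and was not called (edgeR adjusted p = 0.136).

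The 4 metabolic and protein-modifying enzymes were led in abundance by Sccpdh (ENSMUSG00000038936, chr1:179668210-179687189, plus strand), a saccharopine dehydrogenase-like protein, with 13, 9.91 and 8.40 CPM in KO libraries, against 32.1, 24.7 and 18.3 CPM in WT libraries. WT 1 was highest and WT 3 lowest, and WT 3 lay above the highest KO library by less than the WT libraries differed among themselves. Padi3, a peptidylarginine deiminase, had 0.497, 0.207 and 0.40 CPM in KO libraries, against 1.16, 1.85 and 1.54 CPM in WT libraries. Padi2, the next tested gene on chromosome 4, 95.7 kb away, was called lower with 22.3, 20.4 and 20.2 CPM in KO libraries, against 29.6, 26.5 and 31.8 CPM in WT libraries (log2 fold change -0.49, SE 0.09, edgeR adjusted p = 0.0108), but its adjusted p was 0.0501 without WT 1. Sardh, the mitochondrial sarcosine dehydrogenase, averaged 0.546 ± 0.120 CPM in KO libraries and 1.341 ± 0.200 CPM in WT libraries (SD, n = 3 each). Car11, a carbonic anhydrase-related protein without catalytic activity, was at the edge of the set, at 48.8%, with 1.04, 1.70 and 1.69 CPM in KO libraries, against 2.70, 3.56 and 2.83 CPM in WT libraries.

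Of the 5 membrane traffic and organelle genes, Plekhf1 (ENSMUSG00000074170, chr7:38216972-38228016, minus strand), a protein of endosomes with a PH and a FYVE domain, showed the lowest share of its WT mean of all 57, 10.7%. It had 0.149, 0.0516 and 0.178 CPM in KO libraries, against 1.21, 1.05 and 1.29 CPM in WT libraries, which in KO 1, 2 and 3 rests on 3, 1 and 4 reads. The WT libraries held 22, 22 and 26 reads. Grtp1, a TBC domain protein, had 2.38, 1.39 and 1.33 CPM in KO libraries, against 3.91, 3.80 and 3.48 CPM in WT libraries. Reep1, which shapes the endoplasmic reticulum, averaged 0.570 ± 0.203 CPM in KO libraries and 1.36 ± 0.423 CPM in WT libraries, Mrvi1, a partner of the inositol trisphosphate receptor, averaged 0.681 ± 0.109 CPM in KO libraries and 1.44 ± 0.384 CPM in WT libraries, and Cc2d2a, a protein of the base of cilia, averaged 0.833 ± 0.206 CPM in KO libraries and 1.75 ± 0.420 CPM in WT libraries (SD, n = 3 each). The germ cell genes Piwil2, an Argonaute protein of the piRNA pathway, and Catsperd, a subunit of a sperm calcium channel, were close to 1 CPM in WT. Piwil2 averaged 0.508 ± 0.280 CPM in KO libraries and 1.20 ± 0.197 CPM in WT libraries, and Catsperd averaged 0.660 ± 0.0986 CPM in KO libraries and 1.38 ± 0.170 CPM in WT libraries (SD, n = 3 each).

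Of the noncoding, pseudogene and little described members, Art2a-ps (ENSMUSG00000092517, chr7:101552453-101560865, minus strand), a gene of a T cell surface ADP-ribosyltransferase that some strains carry as a pseudogene, had 13.4, 14.5 and 10.1 CPM in KO libraries, against 30.0, 29.1 and 20.8 CPM in WT libraries. Per kilobase of exon it was the most abundant of the 57, at 10.1 CPM per kb in KO libraries and 21.2 CPM per kb in WT libraries. Its paralog Art2b, with which it shares 11.8% of its 50-base words, had 223, 217 and 180 CPM in KO libraries, against 313, 295 and 228 CPM in WT libraries (log2 fold change -0.44, edgeR adjusted p = 0.0459), and that call was lost in 9 of the alternatives, with an adjusted p up to 0.180 when 1 library was left out. Ifngas1 (ENSMUSG00000112230, chr10:118502035-118556525, minus strand), a long noncoding RNA of the interferon gamma locus, had 0.894, 0.775 and 0.800 CPM in KO libraries, against 2.59, 2.28 and 1.84 CPM in WT libraries. Ifng itself averaged 1.12 ± 0.262 CPM in KO libraries and 1.07 ± 0.268 CPM in WT libraries (SD, n = 3 each; edgeR adjusted p = 0.951). BC049352 had 0.447, 1.19 and 0.978 CPM in KO libraries, against 3.41, 3.04 and 2.48 CPM in WT libraries. Nynrin, a gene derived from a retroelement, had 0.596, 0.568 and 0.356 CPM in KO libraries, against 2.15, 1.81 and 2.04 CPM in WT libraries. Plekhd1, a PH domain protein, had 0.994, 0.207 and 0.444 CPM in KO libraries, against 2.09, 2.09 and 1.19 CPM in WT libraries, a wide spread in KO. AL589670.4, a noncoding RNA, averaged 0.407 ± 0.0930 CPM in KO libraries and 1.01 ± 0.0735 CPM in WT libraries, and Lrrc27, a leucine-rich repeat protein, averaged 0.710 ± 0.167 CPM in KO libraries and 1.56 ± 0.172 CPM in WT libraries (SD, n = 3 each).

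On the outer side of the threshold of 0.5, the nearest genes that met the other criteria were Ckb, a creatine kinase, at 50.6%, Ltb4r1, a leukotriene B4 receptor, at 50.7%, and Mctp2, a C2 domain membrane protein, at 50.7% of the WT mean. Inside it the nearest were Prg4, Plxdc2 and Car11 at 49.4%, 49.3% and 48.8%. The threshold thus divides genes of like ratio.

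With the quasi-likelihood test of edgeR and p-values adjusted by Benjamini-Hochberg over all 13602 tested genes, 47 of the 57 were called lower in KO, where 3.2% of all tested genes were called lower and 3.25% higher. Since the same contrast chose the genes, nothing is read from that count. The 10 without a call are Ang, Catsperd, Cc2d2a, Extl1, F2rl2, Mrvi1, Pcdhgc3, Piwil2, Plekhd1 and Reep1, each with a WT mean under 2.5 CPM. Leaving out WT 1 reduced the 47 to 26, leaving out WT 2 to 25, leaving out WT 3 to 35, and leaving out a KO library to 39 or 40. The share of all tested genes called lower fell as well, to 1.22%, 1.27% and 1.99% without WT 1, WT 2 and WT 3. Without a KO library it was 2.72% to 2.88%. Without both libraries that lack Y chromosome reads, 17 were called, against 0.58% of all tested genes.

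Values that the choice did not use come from leaving out 1 KO and 1 WT library together, choosing the genes by the same criteria on the other 4 libraries, and then setting the KO library left out against the WT library left out. The 9 pairs share libraries and are not independent of each other. Each gave 53 to 77 chosen genes, of which 47 to 52 were among the 57. Set against WT 1, WT 2 and WT 3 in turn, KO 1 was lower in 65 of 69, 70 of 75 and 66 of 76 chosen genes, against 56.5%, 52.9% and 49.9% of the genes the criteria could take. KO 2 was lower in 57 of 62, 69 of 75 and 69 of 77 chosen genes, against 48.7%, 45.8% and 42.5%, and KO 3 in 50 of 53, 61 of 65 and 67 of 68, against 53.3%, 50.4% and 48.4%. The share of chosen genes that were lower was thus 86.8% to 98.5%.

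A level of 50% or less was found with KO 1 in 37, 31 and 32 of those genes (53.6%, 41.3% and 42.1%), against 0.967%, 0.731% and 0.803% of eligible genes. With KO 2 it was found in 40, 43 and 42 genes (64.5%, 57.3% and 54.5%), against 0.987%, 0.965% and 0.814%, and with KO 3 in 41, 41 and 46 (77.4%, 63.1% and 67.6%), against 1.58%, 1.67% and 1.49%. For each WT library the share was lowest with KO 1 and highest with KO 3. The median level of the chosen genes ran from 37.8% for KO 3 over WT 1 to 58.5% for KO 1 over WT 3, while the median over eligible genes was 98.1% to 102% in the 9 pairs. Neither these shares nor those of genes merely lower were divided by WT level. The criteria took low genes more often. Eligible genes at 1 to 5 CPM had a larger median coefficient of variation among WT libraries than those at 5 CPM or more. The part of low counts in the difference between chosen and eligible genes was not tested.

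**Figure D4:**
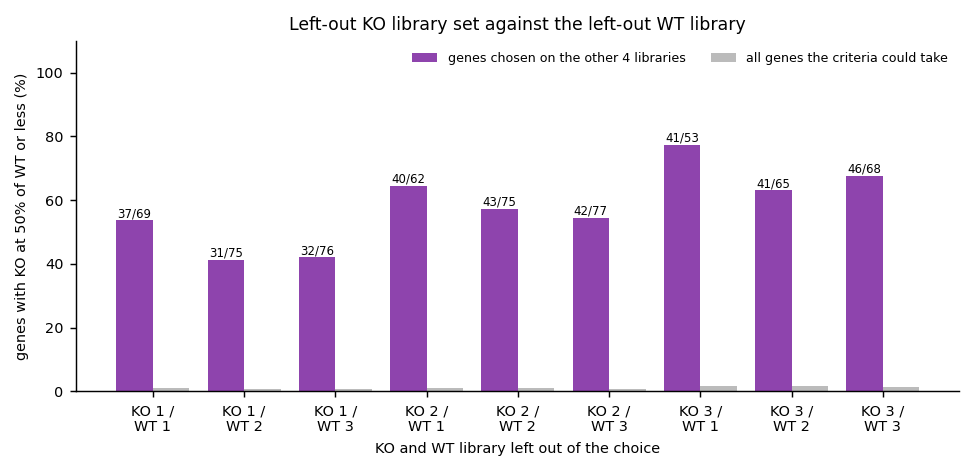
Share of genes (vertical axis, percent) whose level in the KO library left out was 50% or less of that in the WT library left out, for each of the 9 pairs (horizontal axis), among genes chosen on the other 4 libraries (purple, with the numbers above the bars) and among all genes the criteria could take (grey). The purple bars run from 41.3% to 77.4% and the grey bars from 0.731% to 1.67%. The genes were not divided by WT level.

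The highest WT value was in WT 1 in 37 of the 57 (64.9%), against 38.3% of 9783 other eligible genes, and the lowest was in WT 3 in 34 (59.6%), against 40.9%. In KO libraries the highest value was in KO 1 in 28 (49.1%), against 26.1%. The median coefficient of variation of the 57 was 24.1% among KO libraries and 14.1% among WT libraries. KO 2 and WT 1 are the libraries without Y chromosome reads. With both left out of the choice, KO 2 was at 50% of WT 1 or less in 40 of 62 chosen genes (64.5%), against 0.987% of eligible genes, and the median of the 62 was 43.3%. The part of cell sex and of single libraries in these levels was not tested beyond these values.

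Promoter windows from RefSeq (GRCm38.p6, the same assembly as mm10), from 250 bases before to 50 bases after a start that RefSeq gives, were matched by gene to 44 of the 57 genes and to 7833 eligible genes in all, taking the window nearest the gene's start in the count table. No window was matched for AL589670.4, Art2a-ps, Farp1, Fzd6, Hbegf, Hectd2, Lilrb4a, Nid2, Pard6g, Pcdhgc3, Piwil2, Plxdc2 and Prg4. In the 44 windows the median number of CG dinucleotides, the sites of DNA methylation, was 8.5 per window of 300 bases. It was 22 in the other 7789. The 44 differed widely, from 0 to 43. Fewer than 5 were present in 13 of 44 windows (29.5%), against 6.53%. Among the other eligible genes, fewer than 5 were more common at low levels (16.1% at 1 to 5 CPM and 5.09% at 5 CPM or more). The genes were therefore also divided by level. Of the 44 windows, 10 of 28 (35.7%) at 1 to 5 CPM and 3 of 16 (18.75%) at 5 CPM or more had fewer than 5. At a WT mean of 1 to 5 CPM the median was 9 for 28 of the 57 and 17 for the other eligible genes, and at 5 CPM or more it was 6.5 for 16 of the 57 and 22 for the others. The RefSeq start lay within 200 bases of the start in the count table for 38 of the 44, and farther off for BC049352, Emp1, Extl1, Klrb1c, Ky and Sardh; among those 38 the median was 9 CG dinucleotides and 26.3% had fewer than 5, against 22 and 5.67% in 6390 other eligible genes within that distance. The median GC content was 56.7% in the 44 windows and 61.3% in the others. As examples of the range, the windows of Asb2, with 6 CG dinucleotides, and of Plekhf1, with 31, are shown 5′ to 3′ with each CG in capitals.
Asb2, chr12:103355952-103356251, minus strand: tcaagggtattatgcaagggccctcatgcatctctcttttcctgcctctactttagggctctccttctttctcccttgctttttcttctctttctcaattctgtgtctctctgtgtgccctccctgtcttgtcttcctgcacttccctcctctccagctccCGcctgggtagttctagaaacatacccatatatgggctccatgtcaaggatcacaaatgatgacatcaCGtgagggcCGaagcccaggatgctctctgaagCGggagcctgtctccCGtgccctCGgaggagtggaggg
Plekhf1, chr7:38227945-38228244, minus strand: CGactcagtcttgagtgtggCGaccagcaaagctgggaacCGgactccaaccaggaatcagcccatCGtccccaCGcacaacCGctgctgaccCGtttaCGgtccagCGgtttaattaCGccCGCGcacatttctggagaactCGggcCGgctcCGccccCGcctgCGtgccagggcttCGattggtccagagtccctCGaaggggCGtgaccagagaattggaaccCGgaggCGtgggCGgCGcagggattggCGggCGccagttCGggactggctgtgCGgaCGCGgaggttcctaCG
Vmn2r100 and Serpina3f had 0 in the window, and Klrb1c, Lilr4b, Il1rn and Ifngas1 had 1, while Sccpdh had 43 and Galnt9 41. F13a1 had 3 and Fcmr 5, at the poor end, and Dsp, with 27, and Myo6, with 22, lay at or above the median of the other genes.

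**Figure D5:**
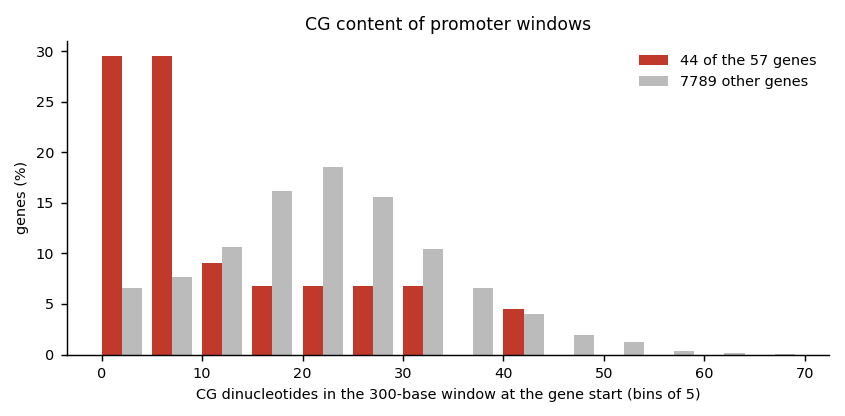
Share of promoter windows (vertical axis, percent) by number of CG dinucleotides per window (horizontal axis, bins of 5) for 44 of the 57 genes (red) and 7789 other eligible genes (grey). The first bin, fewer than 5, holds 29.5% of the red and 6.53% of the grey windows.

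The windows were searched on both strands for 8 short sequence motifs, none of which contains another. The AP-1 motif TGANTCA, bound by Fos and Jun family factors, was in 7 of the 44 windows (15.9%) and in 4.37% of all 7833. By level it was in 17.9% of the 28 windows of genes at 1 to 5 CPM, against 3.90% of other eligible genes, and in 12.5% of the 16 at 5 CPM or more, against 4.36%. Among windows within 200 bases of the start in the count table it was in 6 of 38 (15.8%), against 4.10%. The GC box GGGCGG was in 38.6% of the 44, against 66.9% of all. By level it was in 32.1% of the 28 at 1 to 5 CPM, against 55.5% of other eligible genes. At 5 CPM or more it was in 50% of the 16, against 68.8%. The GC box contains a CG itself, so its share is not independent of the CG counts above. The ETS motif GGAAGT was in 13.6%, against 30.1%, and this and the motifs below were not divided by level. The RUNX motif TGTGGT was in 15.9%, against 12.2%, the STAT motif TTCNNNGAA in 6.82%, against 6.52%, the E-box CACGTG in 6.82%, against 10.4%, the forkhead motif GTAAACA in 4.55%, against 2.53%, and the TATA box TATAAA in 4.55%, against 6.38%. A match is a description of the letters and not a bound site. The stretches around the AP-1 motif are shown because, of the 8, it has the largest ratio between the shares, a choice made after the values were seen; they run 5′ to 3′ on the strand of the gene, with the motif in capitals and up to 20 bases on either side, in GRCm38.p6.
Apobr, chr7:126584792-126584838, plus strand: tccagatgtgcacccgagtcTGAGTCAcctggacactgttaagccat
Emp1, chr6:135362766-135362812, plus strand: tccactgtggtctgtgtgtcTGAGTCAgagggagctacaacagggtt
F2rl2, chr13:95696670-95696713, plus strand: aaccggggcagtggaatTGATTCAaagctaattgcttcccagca
Gja1, chr10:56377261-56377307, plus strand: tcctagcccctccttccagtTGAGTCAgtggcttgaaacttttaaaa
Il1rn, chr2:24336699-24336745, plus strand: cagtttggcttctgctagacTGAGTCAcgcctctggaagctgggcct
Vmn2r100, chr17:19504687-19504733, plus strand: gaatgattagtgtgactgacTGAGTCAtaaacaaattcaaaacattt
Counted from the RefSeq start of each window, which differs from the start in the count table for these genes, the seventh gene, Gpnmb, has its match 8 bases after the start. In Gja1, the member with the largest fitted drop, the motif begins 19 bases before it, in Vmn2r100 104 bases, in Il1rn 141, in Emp1 145, in Apobr 196 and in F2rl2 233 bases before it. Of the 6 shown, 5 carry TGAGTCA, and F2rl2 carries TGATTCA.

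The 57 genes lie on 17 of the 19 autosomes, with 9 on chromosome 7, 6 on chromosome 6, 5 on chromosome 14 and 0 on chromosomes 3 and 16. On chromosome 11, which holds Smarcd2, there are 3, Serpinf1, Hs3st3b1 and Stc2, at 30.8, 42.3 and 74.9 Mb from it. The nearest tested gene on each side of each member, at any distance, gave 112 neighbours that are not among the 57. Their gaps to the member ran from 0 to 3996 kb. Of these, 14 were called lower in KO (12.5%, against 3.2% of all tested genes) and 1 higher, Ripk3 (0.893%, against 3.25%), and the median log2 fold change of the 112 was -0.06. The neighbours called lower include F2r, the thrombin receptor beside F2rl2, with 47.7, 34.8 and 41.1 CPM in KO libraries, against 69.96, 71.9 and 69.9 CPM in WT libraries (log2 fold change -0.79, SE 0.10, edgeR adjusted p = 0.00217), and Serpina3g and Padi2, relatives of the members beside them. Il10, 139 kb from Fcmr, was lower as well, at 15.6, 10.8 and 23.4 CPM in KO libraries and 44.5, 42.3 and 32.4 CPM in WT libraries. It met the numeric criteria and was set aside by name. The neighbours called lower lay from 0 kb (Cln3, which overlaps Apobr) to 1017 kb (E330021D16Rik, next to Emp1) from the member. Whether distance plays a part in these calls was not tested. The number of neighbours called lower was 4 without WT 1, 5 without WT 2, 6 without WT 3, 9 without KO 1 and without KO 2, 12 without KO 3, and 2 without both libraries lacking Y reads, against 1.22%, 1.27%, 1.99%, 2.88%, 2.8%, 2.72% and 0.58% of all tested genes in those fits.

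For 14 of the 57 genes the counts are uncertain, and for 43 neither of 2 reasons was found. A gene with at least as many reads overlaps the exons of Ang, Apobr, Gpld1, Grtp1, Lrrc27, Nid2, Pcdhgc3 and Prg4. More than 5% of the 50-base words also occur in transcripts of another gene for Ang, Art2a-ps, Hs3st3b1, Klrb1c, Lilr4b, Lilrb4a, Pcdhgc3 and Serpina3f. Of the overlapping genes with more reads, Tpr, beside Prg4, had a log2 fold change of -0.03, Mrs2, beside Gpld1, of 0.01, Lamp1, beside Grtp1, of -0.14, and Rtraf, beside Nid2, of -0.10. None of these 4 was called (edgeR adjusted p = 0.784, 0.940, 0.172 and 0.237). Cln3, whose exons overlap 11.7% of the exon length of Apobr, was called lower with a log2 fold change of -0.41 (SE 0.06, edgeR adjusted p = 0.00567). If the counting ignored strand, on which the labels are silent, reads of these pairs cannot be told apart.

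Several members, such as F13a1, Gpnmb, Apobr, Lilrb4a and Klrb1c, are also known from myeloid or natural killer cells, so markers of other cells were read beside them. The summed level of 15 monocyte and macrophage markers was 90.6, 199.9 and 30.4 CPM in KO libraries, against 56.5, 74.3 and 71.5 CPM in WT libraries, with 0 of 14 tested called and complement C1q genes and Csf1r read in every library. That sum was highest in KO 2. The 9 natural killer and CD8 T cell markers summed to 36.9 to 38.2 CPM in KO libraries and 37.8 to 40.5 CPM in WT libraries. Of 6 tested, 2 were called lower: Klrb1c, a member, and Prf1, perforin, with 8.10, 8.68 and 5.87 CPM in KO libraries, against 11.3, 12.3 and 12.3 CPM in WT libraries (edgeR adjusted p = 0.0221), whose call was lost without WT 1, without WT 2 and without WT 3. Ncr1, a defining natural killer receptor, had 4, 5 and 1 reads in KO libraries and 0 reads in each WT library.

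Markers of plasmacytoid dendritic cells summed to 111 to 134 CPM in KO libraries, below the 172 to 217 CPM of WT libraries. The sum rests on Ccr9, which T cells also express, and on Pacsin1, both called lower, while the defining marker Siglech had at most 1 read in any library; without Ccr9 it was 81.9 to 92.9 CPM in KO libraries and 104 to 112 CPM in WT libraries. B cell markers summed to 17.8 to 26.0 CPM in KO libraries and 22.7 to 27.2 CPM in WT libraries, with Cd79b called lower and Cd22 called higher among 4 tested. Plasma cell markers summed to 6.67 to 22.4 CPM in KO libraries and 5.01 to 7.75 CPM in WT libraries, with Sdc1 called higher among 3 tested. The calls of Cd79b, Cd22 and Sdc1 were all lost without WT 1. Markers of neutrophils, conventional dendritic cells, erythroid cells, megakaryocytes, mast cells, stromal cells and endothelial cells summed to less than 13 CPM in every library. In that order only 1, 1, 3, 2, 2, 2 and 2 markers were tested, with none called. Neutrophil markers summed to 1.29 to 1.99 CPM in KO libraries and 0.447 to 1.05 CPM in WT libraries. Conventional dendritic cell markers summed to 2.89 to 5.78 CPM in KO libraries and 2.19 to 2.68 CPM in WT libraries. In the other lists of this group the sums of the genotypes overlapped. The part of other cells in the levels of the 57 genes was not tested. With markers of other cells taken out before normalization, 46 of the 57 were called lower, against 3.2% of all tested genes. Klrb1c had been taken out with those markers. Taking genes out leaves the read counts of the other genes as they were, so this fit does not measure the part of other cells.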

How the data were processed

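Total RNA of spleen Treg cells sorted by GFP was sequenced in 6 libraries, 3 KO and 3 WT. The deposited values are raw read counts per Ensembl gene, made by the authors and not normalized; per the submitters' processing notes, the mm10 build, HISAT2 2.1.0, fastp 0.23.2, Picard and DESeq2 1.34.0 were used. The read counter, its strand setting and the annotation release were not given in the sources used here. Spreadsheet dates were turned back into symbols for 27 genes by their identifier. CPM is the count over the library total, times 1000000; for a gene at 0 reads the limit is 3 counts, or 0.133 to 0.165 CPM in a library and covers counting error only.

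The members and gene lists were chosen with earlier results of these data known. All genes kept by filterByExpr (13602) were fitted with edgeR 4.0.16 (R 4.3.3), TMM normalization and the quasi-likelihood F test with no block; genes with a p under 0.05 after Benjamini-Hochberg adjustment were called. The SE given with a log2 fold change was derived from the test, as the absolute log2 fold change over the square root of the F statistic. The fit was tested on simulated data. Alternatives used RLE or library-size scaling, no filter, DESeq2 1.42.0, limma-voom (limma 3.58.1), a replicate block, and each library left out; a Y transcript covariate, a fit without libraries lacking Y reads, one without markers of other cells, the choice of genes on 4 libraries and the 200-base limit on promoter windows were chosen after seeing the data. Overlaps, exon lengths and 50-base words came from GENCODE M21. Members were named by rule as the 15 highest in WT, the 15 lowest ratios with a WT mean of at least 2 CPM, members of a marker or relatives list and the 3 genes on either side of the threshold; the other members and all neighbours were named after their values were seen. No pair of libraries of 1 genotype agreed within sampling noise.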

Additional observations from a re-analysis of the deposited data

How the results depend on the processing

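With TMM or RLE library sizes the criteria took the same 57 genes. A WT mean of at least 2 CPM left 36 genes and a ratio of at most 0.4 left 20 with a median log2 ratio of -1.77; with a library left out the criteria took 52 to 70 genes, with a median log2 ratio of -1.34 to -1.18. Members called lower numbered 44 with DESeq2, 48 with limma-voom, 52 without a filter, 42 with the Y covariate and 25 to 40 with a library left out. Of all tested genes, 3.82% were called lower with DESeq2, 3.21% with limma-voom, 3.29% without a filter and 3.42% with the Y covariate. With a library left out it was 1.22% to 2.88%. Over all genes 435 were called lower and 442 higher; with a library left out it was 170 to 400 lower and 167 to 471 higher, and 1 to 12 markers of other cells were called, against 7. Without the low-count filter 812 were lower, 812 higher and 19 markers called. Without the libraries lacking Y reads, 80 genes were lower, 106 higher, 17 members and 1 marker were called, with 2 libraries per genotype. Same-numbered KO and WT libraries correlated at -0.14, -0.05 and 0.15 in their deviations from the group means. Pairs of unlike number ranged from -0.21 to 0.23, so these values cannot settle whether libraries of the same number were paired. With the replicate block 44 members, 368 genes lower, 370 higher and 7 markers were called. Genes near 1 CPM rest on few reads, such as the 3, 1 and 4 reads of Plekhf1 in KO libraries and 22, 22 and 26 in WT libraries, which limits how closely their share of the WT level is known.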
